A study of Capra hircus with 4 samples.

Results

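The collagen gate is a set of ovary nuclei chosen by marker genes so as to hold collagen-producing fibroblasts. A nucleus entered the gate when it had at least 500 unique molecular identifiers (UMIs, each marking 1 captured RNA molecule), when at least 4 of the 9 genes COL1A1, COL1A2, COL3A1, LUM, SPARC, FBLN1, FAP, COL5A2 and POSTN had a UMI, and when at most 3 of the 8 contractile genes ACTA2, MYH11, TAGLN, MYLK, CNN1, ACTG2, DES and LMOD1 had one. Nuclei with any UMI of FSHR, PECAM1 or PROX1, markers of granulosa cells, blood vessel lining and lymphatic vessel lining, were left out. The gate held 721 of 48332 nuclei: Du'an replicate 1 gave 124, Du'an replicate 2 gave 98, Nubian replicate 1 gave 398 and Nubian replicate 2 gave 101. Nubian replicate 1 thus supplied 55.2% of the members.

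The nuclei came from the ovaries of 4 goats (Capra hircus), each sequenced as 1 library by a droplet 3' method. The 2 Nubian goats belonged to a breed group with litters of at least 3 kids and the 2 Du'an goats to a group with litters of 1. All 4 were about 3 years old, carried an internal device with 300 mg of progesterone for 17 days to bring estrus into step, and received no hormone to induce superovulation. Left ovaries were taken after the onset of estrus, without their outer coat and fat, and no tissue or cell type was sorted. The libraries held 40573246 and 60566681 UMIs in Du'an and 71613892 and 52783453 in Nubian goats, of which 315496, 439236, 1261319 and 347414 lay in the gate. With 2 goats per breed, p-values between breeds measure only the spread between these 4 animals.

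Fibroblasts of the ovary lie in the cortex, in the medulla and in the outer theca layer around growing follicles. They secrete procollagen chains, which fold as triple helices in the endoplasmic reticulum, are hydroxylated and trimmed by dedicated enzymes, and assemble outside the cell with fibrillin, fibronectin and small proteoglycans such as decorin. This matrix is remodelled by metalloproteinases each time a follicle grows, ruptures or regresses, and it also stores growth factors of the TGF-beta family.

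The rule split a continuum of detection. Of 2212 nuclei with at least 4 of the 9 collagen gate genes, 32.6% were kept. A UMI of FSHR was present in 1089 of those nuclei, more than 3 contractile genes in 659, PECAM1 in 159 and PROX1 in 147, with overlap between these conditions. Exactly 4 of the 9 genes were seen in 338 of the 721 members, 5 in 181 and all 9 in 3. Just outside the limit, nuclei with 3 of the 9 genes that met the other conditions numbered 166, 87, 319 and 156 in Du'an 1, Du'an 2, Nubian 1 and Nubian 2. Their DCN levels were 245, 145, 342 and 226 counts per 1000000 UMIs (CPM), beside 274, 133, 329 and 410 CPM in members with 4 genes, which was higher in members of Nubian 2 and differed less in the other goats. COL6A3 was at 377, 155, 309 and 294 CPM in nuclei with 3 genes and at 487, 154, 614 and 325 CPM in members with 4, higher at the limit in all goats but Du'an 2. No contractile gene was seen in 169 members, 1 in 211, 2 in 189 and 3 in 152.

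Depth and background differed between libraries. Members had a median of 1723.5, 2406, 2019.5 and 2113 UMIs in Du'an 1, Du'an 2, Nubian 1 and Nubian 2, against 1931.5, 3393, 2412.5 and 2010 in all other nuclei. Mitochondrially encoded genes took 2.55%, 3.00%, 3.23% and 3.03% of the members' UMIs and 1.11%, 2.27%, 2.05% and 2.69% of those of other nuclei. The share was higher in members of every goat, its part in the comparisons was not tested, and 0 of 13 mitochondrially encoded genes was called against other nuclei. Nuclei with at least 3 T or natural killer cell genes, which should make no collagen, served as a reference for RNA that does not belong to a nucleus: 4.13%, 1.37%, 9.77% and 1.38% of them had 4 or more of the 9 genes, at median depths of 2923, 2456, 2919 and 3290.5 UMIs. Nubian replicate 1 had the highest such share. Of 47909 different barcodes, 361 were seen in more than 1 library, and no barcode was a member in more than 1.

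One nucleus stood apart from the rest. In Du'an replicate 2 a member of 86959 UMIs and 8723 detected genes carried 19.8% of all gate UMIs of its library. It had 4 of the 9 gate genes, with 78 UMIs of COL5A2, 3 of COL3A1, 2 of FBLN1 and 1 of SPARC, and none of COL1A1, COL1A2, DCN or PDGFRA. Counts below are therefore also given for nuclei with at most 20000 UMIs, an alternative that left out 5 members in all and was chosen after the data were seen.

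The gate took 1.32% of nuclei in Du'an replicate 1 (95% exact binomial interval 1.10 to 1.58), 0.900% in Du'an replicate 2 (0.731 to 1.10), 2.34% in Nubian replicate 1 (2.12 to 2.58) and 0.911% in Nubian replicate 2 (0.743 to 1.11). Nubian 1 lay above the other 3, while Nubian 2 lay between the 2 Du'an goats, so the breeds overlapped. Intervals cover counting error only. The mean share was 0.515 percentage points higher in Nubian goats (two-sided exact permutation p = 0.667, where 2 goats against 2 allow no p under 0.333), and without Nubian replicate 1 the difference was -0.201 points. When every nucleus of 1000 or more UMIs was thinned to 1000 UMIs, the shares were 0.958%, 0.543%, 2.46% and 0.604%, again with Nubian 1 highest. The T or natural killer reference nuclei were thinned too. Of these, 0.935%, 0.0600%, 3.59% and 0% in Du'an 1, Du'an 2, Nubian 1 and Nubian 2 met the gate's limit on collagen genes. Nubian 1 was thus highest in the thinned reference as well, and the part of such background RNA in its gate share was not tested. A UMI of CYP19A1, the aromatase of granulosa cells, was present in 0.806%, 24.5%, 47.2% and 3.96% of the members of Du'an 1, Du'an 2, Nubian 1 and Nubian 2, and in 0%, 25.8%, 46.9% and 8.01% of their T or natural killer reference nuclei, where 0 of 121 nuclei in Du'an 1 allows a share of up to 2.48%. Libraries high in members were high in the reference too. Among nuclei with no UMI of CYP19A1, INHA or the leukocyte gene PTPRC, 8506, 4100, 4059 and 8613 in the 4 libraries, 119, 62, 145 and 96 were members, which gave shares of 1.40%, 1.51%, 3.57% and 1.11%. Nubian 1 was again highest and Nubian 2 lowest, and the breeds overlapped (0.888 points higher on average in Nubian goats, exact permutation p = 1, two-sided).

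**Figure D1:**
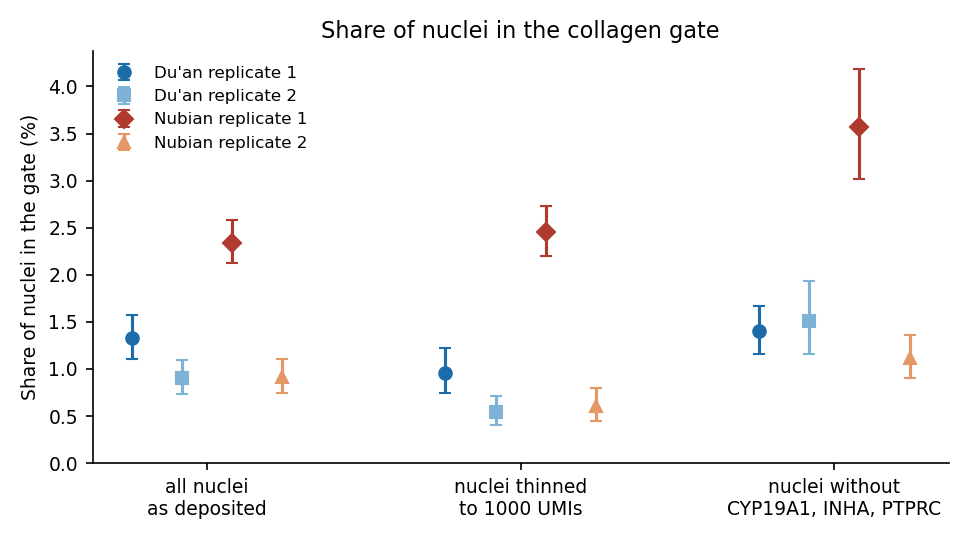
Share of nuclei in the collagen gate, in percent, for each of the 4 libraries as deposited, after thinning every nucleus to 1000 UMIs, and among nuclei with no UMI of CYP19A1, INHA or PTPRC. Points are libraries and bars exact 95% binomial intervals. Nubian replicate 1 sits highest in each setting, at 2.34%, 2.46% and 3.57%.

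The fibrillar collagens that defined the gate were present in most members. COL3A1, the chain of type III collagen in loose and elastic tissue, was at 945, 881, 2877 and 1488 CPM in Du'an 1, Du'an 2, Nubian 1 and Nubian 2, with a UMI in 81.5%, 84.7%, 92.7% and 87.1% of members. In the T or natural killer reference nuclei of these libraries 8.26%, 5.95%, 22.1% and 8.29% had a UMI of COL3A1. COL1A1 was at 754, 877, 1674 and 783 CPM and COL1A2 at 1100, 956, 1656 and 1275 CPM, the 2 chains of type I collagen, both highest in Nubian 1. COL5A2, a chain of the type V collagen that sets fibril width, was at 751, 965, 1144 and 1252 CPM.

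The other gate genes also differed between goats. LUM, a keratan sulfate proteoglycan that spaces collagen fibrils, was at 31.7, 118, 362 and 80.6 CPM, lowest in Du'an 1 and highest in Nubian 1. FAP, a membrane protease of activated fibroblasts, was at 349, 159, 708 and 271 CPM. POSTN, which encodes the matrix protein periostin, ran the other way in Nubian goats, with 53.1 CPM in Nubian 1 and 239 CPM in Nubian 2, beside 85.6 and 141 CPM in Du'an goats. Few members carried it: 5.65%, 7.14%, 5.78% and 4.95% in Du'an 1, Du'an 2, Nubian 1 and Nubian 2 had a POSTN UMI. In Nubian 2 these were 5 nuclei. SPARC, a collagen-binding glycoprotein, was at 219, 371, 542 and 383 CPM, and FBLN1, an elastic fibre component, at 384, 232, 465 and 213 CPM. For COL1A2, COL3A1, COL5A2 and SPARC both Nubian values lay above both Du'an values, and for the other 5 the breeds overlapped, beside 31.4% of all 6113 genes tested between breeds that had no overlap. Without nuclei over 20000 UMIs COL5A2 and SPARC overlapped too, with COL5A2 at 1070 CPM in Du'an 2 and 984 CPM in Nubian 1, and SPARC at 328 CPM in Du'an 2 and 283 CPM in Nubian 2. SPARC also overlapped without members that had CYP19A1, INHA or PTPRC UMIs, at 229 and 429 CPM in Du'an and 405 and 303 CPM in Nubian goats. Since these 9 genes chose the nuclei, these levels are a description and were not tested against other nuclei.

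**Figure D2:**
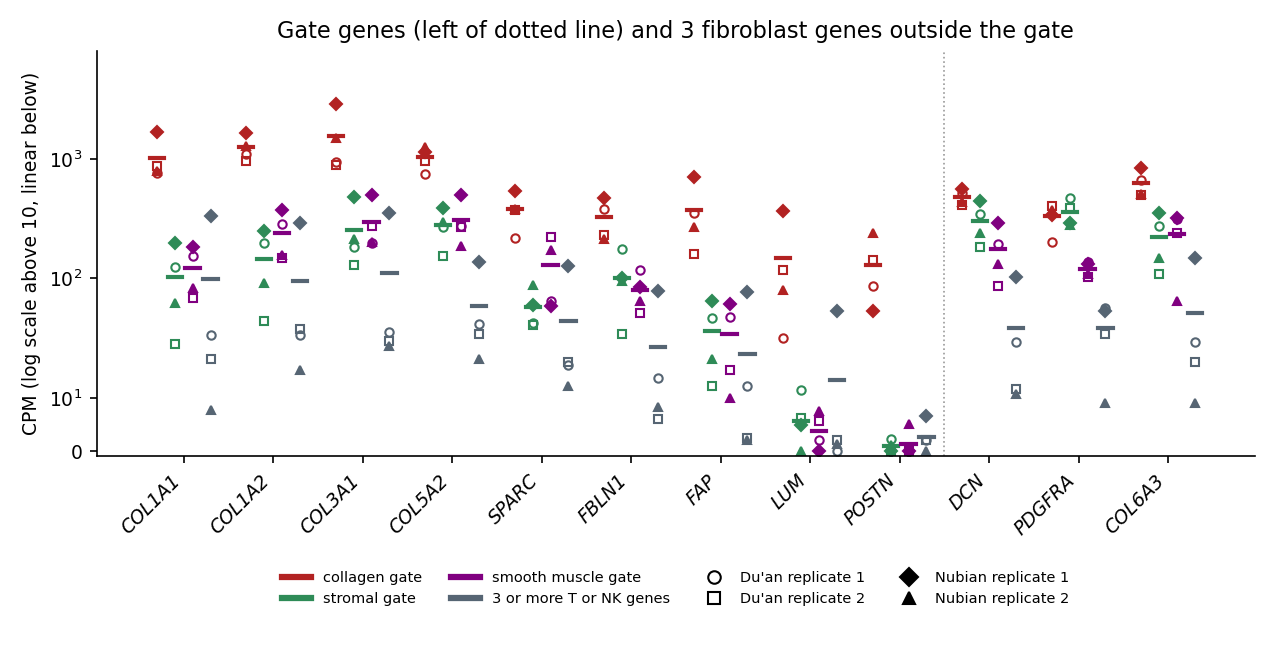
Level in CPM (log scale above 10) of the 9 genes that defined the gate and of DCN, PDGFRA and COL6A3, which did not, in summed nuclei of the collagen gate, the stromal gate, the smooth muscle gate and the T or natural killer reference. Symbols are the 4 libraries, lines the means over them. In the gate DCN stood between 412 and 561 CPM.

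Against all other nuclei, most tested collagens and matrix glycoproteins were higher in the gate, and most granulosa and macrophage markers lower. UMIs were summed per goat within and outside the gate and compared by edgeR's quasi-likelihood test with the goat as a block, with p-values adjusted by Benjamini-Hochberg over 15248 genes and the 20 genes of the rule left out. At an adjusted p under 0.05, 13.1% of genes passed, 1072 higher in the gate (7.03%) and 919 lower (6.03%). The median log2 fold change of all tested genes was -0.12. Because members were chosen on 9 collagen-related genes, genes that go with these in the same nuclei were bound to appear, and each p states only that a gene went with the gate in these 4 goats. Leaving out nuclei over 20000 UMIs gave 1209 higher and 1222 lower.

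Fibroblast markers that the rule did not use were higher in the gate than in all other nuclei, all 8 of them in all 4 goats, with a median log2 fold change of 3.28. DCN, the small proteoglycan decorin, was at 513, 412, 561 and 435 CPM in members and 33.8, 15.7, 53.3 and 33.9 CPM in other nuclei (log2 fold change 3.83 ± 0.24 (SE), edgeR adjusted p = 3.86e-06). PDGFRA, the receptor for platelet-derived growth factor that marks mesenchymal cells, was at 203, 405, 336 and 374 CPM against 62.5, 32.4, 30.1 and 43.4 CPM (2.93 ± 0.31). COL6A3, a chain of the type VI collagen that surrounds cells with beaded filaments, was at 659, 501, 842 and 504 CPM against 40.7, 22.4, 67.4 and 24.8 CPM (4.03 ± 0.22). In each of the 4 goats these genes were several times higher in members, and the ranges of members and other nuclei did not overlap. FBN1, PDGFRB, THBS2, COL5A1 and MMP2 rose by 3.52, 3.1, 3.18, 3.39 and 2.66 on the log2 scale. The stromal gate described further on, chosen in part by PDGFRA and DCN, held much of the same RNA: there PDGFRA was at 469, 389, 288 and 281 CPM and DCN at 347, 182, 445 and 239 CPM, and of the 6 markers that could be tested against it 2, COL6A3 and FBN1, were called higher in the collagen gate, with a median of 1.05 over the 6. Some of these 8 genes also stand in the lists of matrix or growth factor genes that follow. In Nubian replicate 2 a single nucleus held 65.2% of the FBN1 UMIs, and without its counts FBN1 stood at 403 CPM there.

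Markers of other ovarian cell types did not all move one way: granulosa, macrophage and lymphatic markers were mostly lower, pericyte markers mostly higher, and epithelial, theca and blood vessel markers mixed. Since the rule left out nuclei with a UMI of FSHR, PECAM1 or PROX1, lower granulosa, blood vessel and lymphatic markers follow in part from the choice of members and are given as a description. Of 7 tested granulosa markers 6 were lower in the gate, of 6 macrophage markers 5, of 5 lymphatic vessel markers 4 and of 7 T or natural killer markers 3, and none was higher. Summed granulosa markers stood at 146, 291, 685 and 124 CPM in Du'an 1, Du'an 2, Nubian 1 and Nubian 2, against 2750, 4635, 5255 and 2488 CPM in other nuclei, with CYP19A1 the most abundant in Nubian 1 at 231 CPM. STAR, which carries cholesterol into mitochondria for steroid synthesis, was at 0, 0, 3.96 and 23.0 CPM, where a count of 0 allows up to 9.51 CPM in members of Du'an 1 and 6.83 CPM in Du'an 2. CYP17A1, the enzyme that makes androgens in the inner theca, had UMIs in members of Du'an 2 only, at 6.83 CPM. CYP11A1, which starts steroid synthesis, was not called, at 31.7, 86.5, 61.0 and 109 CPM against 27.9, 33.7, 65.8 and 36.0 CPM. Both enzymes are listed in the files under locus names that RefSeq pairs with these symbols. Pericyte markers were the exception, with 4 of 6 higher: EBF1 (2.96), NOTCH3 (3.37), ABCC9 (1.68) and KCNJ8 (3.1 on the log2 scale). The 6 markers summed to 526, 965, 643 and 541 CPM against 93.4, 61.2, 191 and 60.4 CPM, most of it EBF1. RGS5, also a pericyte marker, was at 15.8, 72.9, 22.2 and 0 CPM in members and was not called. All 6 had log2 fold changes above 0, with a median of 2.59. The part of pericytes among the members was not tested. Epithelial markers, of which none of 7 was called, summed to 60.2, 139, 17.4 and 31.7 CPM in members against 20.9, 63.7, 11.9 and 80.6 CPM in other nuclei, so that they were higher in members of every goat but Nubian 2. Theca markers summed to 345, 569, 279 and 337 CPM against 136, 833, 836 and 291 CPM, with 1 of 5 called higher and 1 lower. The lower call was STAR, whose log2 fold change turned to 0.29 without nuclei over 20000 UMIs. Blood vessel markers summed to 117, 173, 436 and 262 CPM against 256, 287, 275 and 158 CPM, higher in members of the Nubian goats and lower in those of the Du'an goats. The part of these cells among the members was not tested. Among the vessel markers ERG, an endothelial transcription factor, was higher at 85.6, 102, 327 and 196 CPM (1.68 ± 0.35), whereas KDR and FLT1, the receptors for vascular endothelial growth factor, were lower.

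Among the 28 tested collagen genes outside the rule, 19 were higher and 2 lower, with a median log2 fold change of 2.13. The 3 main chains of type VI collagen rose by 3.41 (COL6A1), 3.24 (COL6A2) and 4.03 (COL6A3). Collagens that sit on the surface of fibrils rose too: COL14A1 was at 339, 433, 841 and 676 CPM against 27.6, 32.5, 76.0 and 39.1 CPM (3.64 ± 0.20, adjusted p = 2.89e-06), and COL12A1 at 263, 291, 526 and 377 CPM against 53.6, 20.3, 60.3 and 26.8 CPM (3.19 ± 0.28). Fibril-forming COL11A1 (3.75), COL5A1 (3.39), COL27A1 (3.01) and COL24A1 (3.21) followed. Of COL24A1 the level was 79.2, 100, 1165 and 132 CPM, so that Nubian 1 alone stood out. Among the basement membrane chains of type IV collagen, COL4A1 (1.31), COL4A2 (1.48) and COL4A5 (1.23) were higher, and COL4A3 (-1.94) and COL4A4 (-1.77) were the 2 collagens that were lower.

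Enzymes and chaperones that fold and cross-link collagen were higher in 17 of 31 cases and lower in 3, with a median of 0.87. PLOD2, which hydroxylates lysines before cross-linking, was at 384, 332, 299 and 429 CPM against 140, 74.1, 82.4 and 105 CPM (1.79 ± 0.19), and SERPINH1, the collagen chaperone HSP47, at 53.9, 230, 99.1 and 161 CPM against 43.7, 58.0, 55.3 and 62.0 CPM (1.09 ± 0.27). P3H2, a prolyl 3-hydroxylase, rose by 0.62. P4HA1, a catalytic subunit of the prolyl 4-hydroxylase, was not called, at 98.3, 137, 174 and 201 CPM against 149, 81.6, 78.9 and 143 CPM. TLL2, a protease related to the procollagen C-proteinase, was lower at 162, 116, 107 and 107 CPM against 966, 967, 822 and 709 CPM (-2.92 ± 0.19). The steps of collagen maturation thus did not all move with the collagens.

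**Figure D3:**
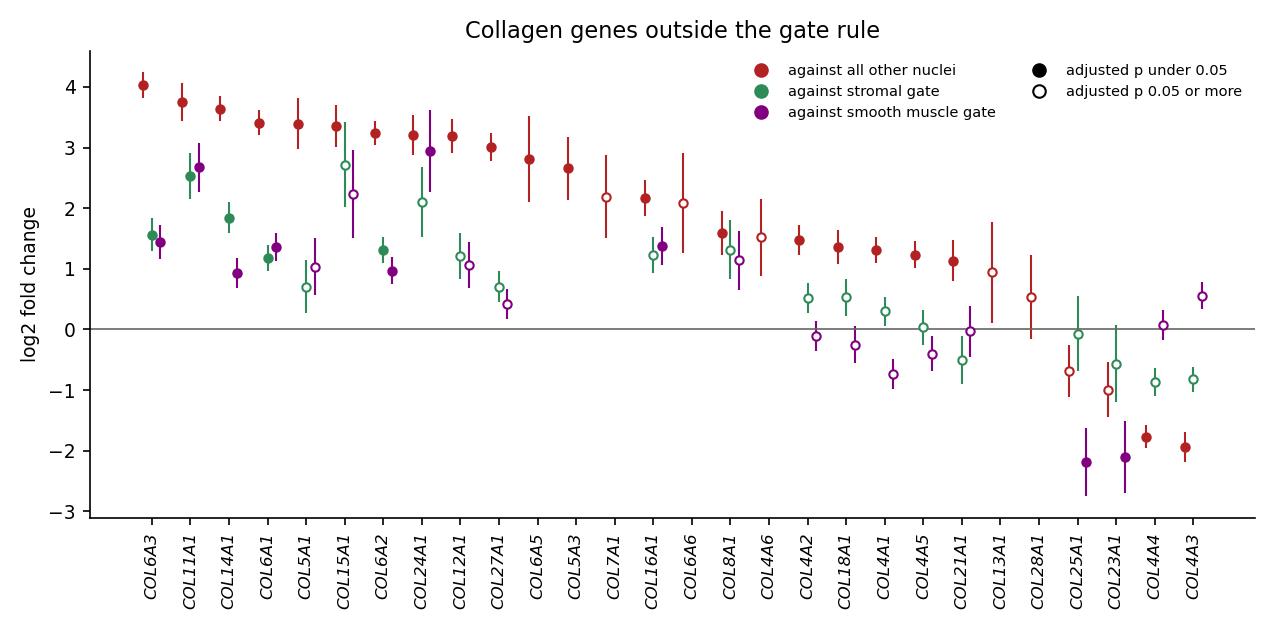
log2 fold change, with its standard error, of the 28 tested collagen genes outside the rule in the collagen gate against all other nuclei, the stromal gate and the smooth muscle gate. Filled points had an adjusted p under 0.05. Against all other nuclei 19 were higher and 2, COL4A3 and COL4A4, were lower.

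Among the 43 tested non-collagen matrix components, 32 were higher and 1 lower, with a median of 2.23. FBN1, the core of elastic microfibrils, was at 694, 1006, 1154 and 1157 CPM against 126, 70.0, 105 and 46.6 CPM. THBS1, the adhesive thrombospondin 1, was at 938, 1056, 859 and 579 CPM against 225, 103, 146 and 264 CPM (2.20 ± 0.31), and IGFBP7, which binds insulin-like growth factors, rose by 1.06. VCAN, the large proteoglycan versican, was the 1 member that was lower, at 422, 731, 1374 and 656 CPM against 856, 1816, 1611 and 979 CPM (-0.87 ± 0.22). LTBP1, which tethers latent TGF-beta to the matrix, was not called, at 922, 767, 606 and 717 CPM against 1106, 436, 774 and 401 CPM. IGFBP5 was not called either: single nuclei held 76.5% of its UMIs in Du'an 2 and 84.9% in Nubian 2, where it read 1364 and 1318 CPM.

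Matrix proteases and their inhibitors were higher in 16 of 33 cases and lower in 1, with a median of 1.51. TIMP2, an inhibitor of metalloproteinases, was at 545, 412, 689 and 435 CPM against 149, 159, 190 and 179 CPM (1.51 ± 0.19). ADAM12, a disintegrin protease, was at 276, 205, 880 and 368 CPM against 88.4, 42.8, 81.1 and 38.6 CPM (2.58 ± 0.30). ADAMTS9 and ADAMTS1, which cleave versican, rose by 2.07 and 2.06. The inhibitor SERPINE2, at 47.5, 307, 1081 and 138 CPM against 189, 1416, 3439 and 286 CPM, was lower (-1.81 ± 0.23) and followed the level of the other nuclei from goat to goat.

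Growth factor genes were listed by family. Of the PDGF, FGF, HGF and IGF ligands and receptors 12 of 22 were higher and 1 lower, with a median of 1.24. FGF1 was at 425, 123, 477 and 178 CPM against 50.4, 11.6, 34.5 and 49.3 CPM (2.97 ± 0.29), its receptor FGFR1 rose by 2.11 and the ligand PDGFD by 1.26. IGF1R, the receptor for insulin-like growth factor 1, was lower at 618, 706, 520 and 725 CPM against 1555, 972, 793 and 1208 CPM (-0.87 ± 0.21). Of the WNT and hedgehog genes 15 of 33 were higher and none lower, with a median of 1.65. GLI2, a transcription factor that hedgehog signals activate, was at 437, 200, 274 and 368 CPM against 29.8, 13.0, 29.8 and 28.2 CPM (3.59 ± 0.21), and GLI3 rose by 1.30. PTCH1, the hedgehog receptor and itself a target of GLI factors, was called higher but in only 3 of 4 goats, with 269, 289, 31.7 and 132 CPM against 90.4, 50.03, 36.5 and 46.1 CPM.

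In the TGF-beta and BMP pathway 5 of 29 genes were higher and 4 lower, with a median of 0.31. SMAD2, which carries the TGF-beta signal to the nucleus, was at 336, 278, 340 and 245 CPM against 1207, 1264, 1361 and 719 CPM (-1.99 ± 0.19, adjusted p = 3.20e-05), and BMPR2, a type II BMP receptor, fell by 0.77. BMPR1B, a type I BMP receptor linked to litter size in sheep, was not called, at 1426, 2491, 1701 and 1862 CPM against 2054, 1203, 1420 and 1252 CPM.

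Integrins and other matrix receptors were higher in 10 of 27 cases and lower in 5, with a median of 0.62. ITGA11, the integrin chain through which fibroblasts grip type I collagen, was at 53.9, 18.2, 138 and 28.8 CPM against 3.1, 0.682, 5.22 and 1.6 CPM (4.36 ± 0.31). It was among the largest changes of the genes that met the naming rule given below. DDR2, a receptor kinase that fibrillar collagen activates, was at 273, 271, 205 and 207 CPM against 128, 99.3, 128 and 67.6 CPM (1.11 ± 0.20), and ITGA9 and the collagen uptake receptor MRC2 rose by 1.34 and 1.25. ITGAV, the shared chain of several vitronectin and fibronectin receptors, was not called, at 269, 478, 409 and 452 CPM against 469, 340, 359 and 384 CPM.

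Among mesenchymal transcription factors 17 of 37 were higher and 2 lower, with a median of 1.16. TCF4 was at 1078, 703, 1659 and 866 CPM against 688, 449, 904 and 458 CPM (0.69 ± 0.18) and SOX5 at 1081, 1696, 1062 and 1549 CPM against 962, 570, 453 and 965 CPM (0.83 ± 0.24). FOXP1 was lower, at 1449, 1521, 2107 and 1839 CPM against 3427, 2855, 2424 and 2404 CPM (-0.77 ± 0.23). Of 12 steroid and thyroid hormone receptors 5 were higher: THRB, the beta thyroid hormone receptor, was at 479, 296, 1650 and 391 CPM against 158, 96.3, 156 and 163 CPM (1.88 ± 0.31), and PGR, the progesterone receptor, at 190, 162, 104 and 201 CPM against 77.4, 86.3, 93.9 and 77.2 CPM (0.84 ± 0.23). The estrogen receptor ESR1 was not called, with 552, 492, 342 and 489 CPM in members. Of 22 immediate early and stress genes, which rise when tissue is handled, 3 were higher. EGR1 and NR4A1 rose by 1.44 and 1.29, and FOS and JUN were not called.

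**Figure D4:**
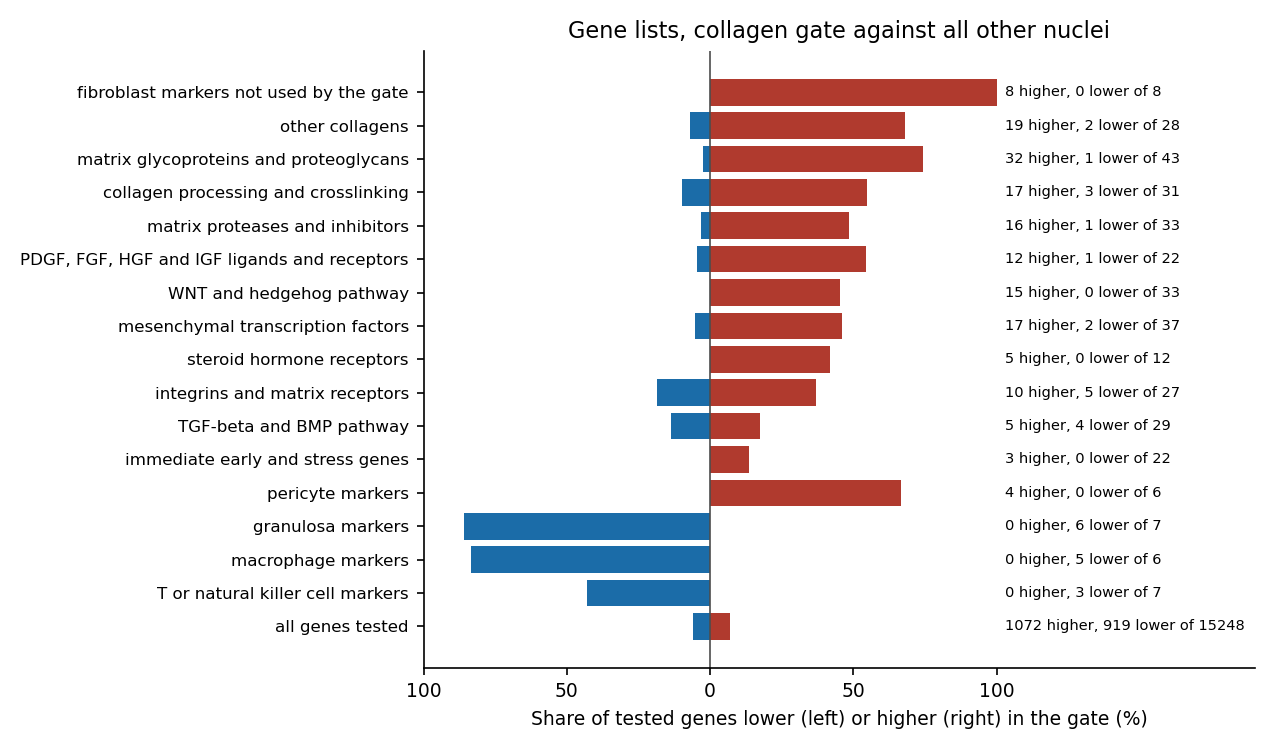
Share of tested genes of each list, in percent, that was higher (right) or lower (left) in the collagen gate than in all other nuclei at an adjusted p under 0.05. The matrix glycoproteins (32 of 43) and other collagens (19 of 28) were mostly higher and granulosa markers mostly lower, beside 7.03% higher and 6.03% lower among all genes.

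Genes with the largest differences were named by a fixed rule that asked for the same direction in all 4 goats and at least 50 CPM on average. Higher in the gate were KIAA1755 (log2 fold change 5.0), ITGA11 (4.36), DPT (4.08), COL6A3 (4.03), RBFOX1 (4.02), CNGA3 (4.02), CPXM1 (3.95), DCN (3.83), COL11A1 (3.75) and NID1 (3.70). DPT, the matrix protein dermatopontin that binds decorin, was at 149, 180, 79.3 and 83.5 CPM against 7.30, 7.42, 10.7 and 2.65 CPM. NID1 encodes a basement membrane linker, and RBFOX1, better known as a neuronal splicing factor, was at 19.0, 171, 127 and 107 CPM against 6.81, 4.51, 7.95 and 3.97 CPM. Single nuclei held 61.9% and 48.6% of the RBFOX1 UMIs in Nubian 1 and Nubian 2, which stood at 48.4 and 54.7 CPM without those counts. Lower were S100A8, S100A9, AIF1, FABP5 and C1QC, all expressed in myeloid cells. S100A8 had no UMI in members of either Du'an library and was at 0.793 and 2.88 CPM in Nubian members, against 14.8, 56.2, 10.5 and 523 CPM in other nuclei.

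Another set of nuclei served to ask what set members apart from less collagen-rich stroma. The stromal gate took 692 nuclei (168, 67, 208 and 249) with at least 4 of the 7 measured genes PDGFRA, NR2F2, TCF21, DMD, TSHZ2, LAMA2 and DCN, fewer than 4 of the 9 collagen gate genes, at most 3 contractile genes and none of the excluding genes. The genes of all gates were left out of the test, but because the gates differ by rule in how many of the 9 genes they show, genes that go with those 9, other collagens among them, were bound to differ. Of 6827 genes tested, 0.352% passed, 17 higher (0.249%) and 7 lower (0.103%). Of the collagens outside the rule 5 of 21 were higher, COL6A1, COL6A2, COL6A3, COL11A1 and COL14A1, with a median of 0.71. COL11A1 was at 105, 141, 277 and 250 CPM in members against 35.0, 12.5, 67.5 and 24.9 CPM in stromal nuclei (2.53 ± 0.37, adjusted p = 0.0239). In Nubian 2 a single nucleus held 62.1% of the COL11A1 UMIs of the gate. COL14A1 was at 339, 433, 841 and 676 CPM against 105, 116, 290 and 142 CPM (1.84 ± 0.25).

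The remaining named genes of this comparison were of mixed kinds. GPR39, a zinc-sensing receptor, was at 428, 405, 591 and 363 CPM in members against 79.3, 113, 77.6 and 149 CPM in stromal nuclei (2.13 ± 0.32), with no overlap. C1S, a complement protease made by fibroblasts, rose by 2.23, DTX1 by 2.36, the stretch-gated channel PIEZO2 by 2.01, FBN1 by 2.01, GAS7 by 1.71 and CPXM1 by 1.51. RIMS2, known from synaptic vesicle release, was lower at 247, 328, 142 and 66.2 CPM against 1333, 1291, 338 and 856 CPM (-2.22 ± 0.39), where single nuclei held 47.4% and 62.5% of the members' UMIs in Du'an 1 and Du'an 2, as was NRP1, a co-receptor for semaphorins and vascular growth factors, at 143, 173, 186 and 86.4 CPM against 634, 461, 418 and 234 CPM (-1.56 ± 0.26). PREX2, HECW1 and KIAA1324L were also lower. No member of the lists for signalling, transcription factors, proteases or collagen processing was called in this comparison, and 1 matrix glycoprotein, FBN1, was higher of 25. The comparison rested on the settings: no gene was called with the gate set at 3 of 9 genes, at most 11 were called without any 1 library, and DESeq2 called 68 higher and 48 lower.

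The smooth muscle gate took 589 nuclei (202, 44, 222 and 121) with at least 4 of the 8 contractile genes and fewer than 4 of the 9 collagen gate genes. Against it 8.58% of 6827 genes passed, 126 higher in members (1.85%) and 460 lower (6.74%). The genes of all gates were left out of this test too, but the 2 gates differ by rule in both collagen gate genes and contractile genes. Genes that go with either set in the same nuclei, other collagens among them, were bound to differ. Of 21 collagens outside the rule 7 were higher and 2, COL23A1 and COL25A1, lower. GPR39 had the highest log2 fold change of the named genes, at 428, 405, 591 and 363 CPM against 36.7, 74.1, 19.7 and 52.7 CPM (3.31 ± 0.36, adjusted p = 0.00149). IL33, an alarmin kept in the nuclei of stromal cells, was at 44.4, 45.5, 84.8 and 72.0 CPM against 8.64, 5.70, 6.55 and 2.51 CPM (3.27 ± 0.49), and DPT at 149, 180, 79.3 and 83.5 CPM against 23.8, 11.4, 21.8 and 0 CPM (3.04 ± 0.50). RBFOX1 (3.20), COL24A1 (2.95), ITGA11 (2.90), COL11A1 (2.67), FBN1 (2.43), the neuronal membrane protein GPM6A (2.40) and ADAMTSL3 (2.21) completed the genes named as higher. Single nuclei held between 60.9% and 70.7% of GPM6A UMIs in every library. One nucleus held 71.4% of the IL33 UMIs in Du'an 1, which stood at 12.7 CPM without it, close to the 8.64 CPM of smooth muscle nuclei. In Nubian 2 one nucleus held 71.4% of the ADAMTSL3 and one 78.3% of the COL24A1 UMIs.

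Genes lower than in smooth muscle nuclei included RGS2, a brake on G protein signals in vascular muscle, at 0, 4.55, 1.59 and 2.88 CPM against 54.0, 120, 26.2 and 70.3 CPM (-4.67 ± 0.55). MUSTN1 (-4.30), S100A11 (-3.71), TUBB2A (-3.61) and TNFRSF12A (-3.59) were lower as well. ADAMTS1 was higher than in all other nuclei but lower than in smooth muscle nuclei, by 1.03 on the log2 scale. Epithelial markers summed to 132, 3080, 19.7 and 1207 CPM in the smooth muscle gate of Du'an 1, Du'an 2, Nubian 1 and Nubian 2, and their part in these differences was not tested. The number of lower genes fell from 460 to 236 without nuclei over 20000 UMIs and to 134 without Nubian replicate 2.

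Between breeds no gene of the gate was called. UMIs summed per goat were compared, 2 Nubian against 2 Du'an, and 0 of 6113 genes (0%) had an adjusted p under 0.05 by edgeR's quasi-likelihood test, while 299 genes had an unadjusted p under 0.05 (4.89%) and 31.4% of genes had no overlap between the breeds. DESeq2 called 5 genes, 2 higher in Nubian goats, CNGA3 and GPX3, and 3 lower, among them CORIN and CA10. CORIN, a serine protease that activates natriuretic peptide, was at 225 and 476 CPM in Du'an and 14.3 and 57.6 CPM in Nubian members, and without the nucleus of 86959 UMIs the Du'an 2 level was 39.7 CPM. GPX3, a secreted glutathione peroxidase, was at 25.4 and 15.9 CPM in Du'an and 473 and 57.6 CPM in Nubian members, but at 26.5, 12.9, 204 and 9.27 CPM without members that had CYP19A1, INHA or PTPRC UMIs, where the breeds overlapped. CNGA3, a channel gated by cyclic nucleotides, was at 9.51 and 31.9 CPM in Du'an and 305 and 80.6 CPM in Nubian members, without overlap. CA10, a protein related to carbonic anhydrases, was at 69.7 and 196 CPM in Du'an and 13.5 and 20.1 CPM in Nubian members, and single nuclei held up to 77.9% of its UMIs in a library.

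Matrix genes as a group showed no called change between breeds, with 0 of 19 collagens outside the rule and 0 of 29 matrix glycoproteins called, and median log2 differences of 0.61 and 0.08 (Nubian over Du'an) beside 0.0021 over all genes. The 8 fibroblast markers outside the rule had values above 0, with a median of 0.36, and none was called. DCN, at 513 and 412 CPM in Du'an and 561 and 435 CPM in Nubian members, overlapped between the breeds. Its log2 difference of 0.14 ± 0.28 (SE) fell below 0 in 5 alternatives, among them leaving out nuclei over 20000 UMIs (-0.035) or Nubian replicate 1 (-0.080). In simulated data of this size 65% of genes changed 4-fold and 2.04% of genes changed 2-fold were recovered, so differences of 2-fold were mostly not detectable here.

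Among genes that were high in 1 library, those seen in the largest numbers of members were mainly in Nubian replicate 1. That library had 398 members, against 98 to 124 in the others, so these numbers do not compare how widely a gene was spread. By a rule that asked for at least 100 CPM and at least 4 times the next library, 16 genes were high in Nubian 1 members. FGF7, a growth factor that stroma sends to epithelium, was at 12.7, 13.7, 201 and 2.88 CPM in members and 13.8 CPM in other nuclei of Nubian 1, with UMIs in 78 members. SLC22A3, an organic cation transporter, was at 22.2, 0, 249 and 8.64 CPM, and PLCXD3 at 12.7, 68.3, 380 and 34.5 CPM. BGN, the small proteoglycan biglycan, was at 3.17, 25.0, 160 and 25.9 CPM and COL24A1 at 79.2, 100, 1165 and 132 CPM, against 72.1 CPM in other nuclei of Nubian 1. COL24A1 had UMIs in 171 members of Nubian 1 and no nucleus held more than 6.67% of them. INHA, the inhibin alpha chain of granulosa cells, also met the rule at 158 CPM, but other nuclei of Nubian 1 had 241 CPM.

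When members with a UMI of CYP19A1, INHA or PTPRC were left out, COL24A1 was at 79.5, 80.6, 1147 and 142 CPM, FGF7 at 13.3, 19.3, 238 and 3.09 CPM and RUNX1 at 99.4, 168, 1532 and 315 CPM. In Nubian 1 BGN fell to 86.0 CPM and GPX3 to 204 CPM, as did LUM, which had not met the rule, to 204 CPM. FN1, which encodes fibronectin and did not meet the rule either, was at 174, 184, 751 and 397 CPM in members and 132, 118, 102 and 80.5 CPM in other nuclei, and at 182, 187, 607 and 420 CPM in members without those UMIs. With 1 such goat, an animal and its library cannot be told apart.

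**Figure D5:**
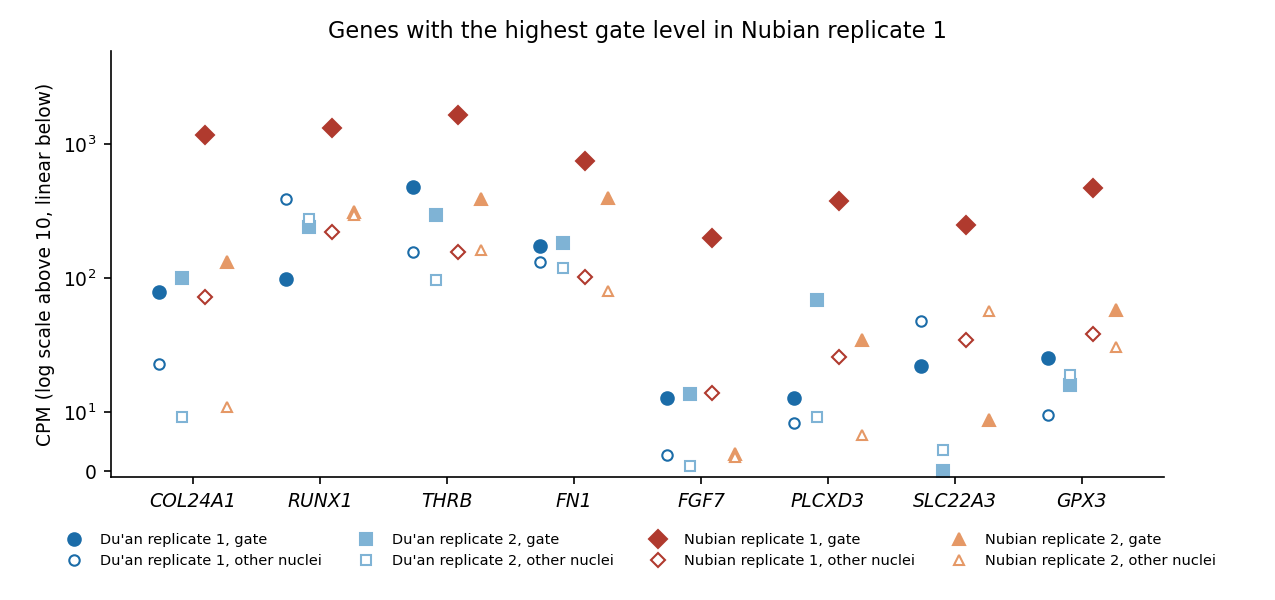
Level in CPM (log scale above 10) of 8 genes in members (filled) and other nuclei (open) of each library. By this choice Nubian replicate 1 members sit highest for each gene, as for COL24A1 at 1165 CPM against 79.2 to 132 CPM in members of the other goats and 72.1 CPM in other nuclei of Nubian 1.

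The other libraries had fewer or more narrowly based genes of this kind. In Du'an replicate 2, 24 genes met the rule, and for all 8 named ones, SHISA9, CEMIP, EPHA6, TMEM132B, MATN3, ADGRL3, DCDC2 and KCND2, at least 92.2% of UMIs came from a single nucleus. In Du'an replicate 1, 4 genes met it. CA3, the carbonic anhydrase of muscle and fat, was at 136, 0, 1.59 and 2.88 CPM and was seen in 18 of 124 members, whereas NCKAP5 rested on a single nucleus for 88.2% of its UMIs. In Nubian replicate 2, 7 genes met it, and CRYBA4, at 613 CPM, came from 1 nucleus with 213 UMIs. FTH1, the ferritin heavy chain, was at 60.2, 182, 193 and 938 CPM in members and 1020, 2654, 769 and 14098 CPM in other nuclei, with Nubian 2 highest in both, and a single nucleus held 37.7% of the FTH1 UMIs of its members. In Nubian 2 FTH1 had UMIs in 58 of 101 members.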

How the data were processed

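Ovary nuclei of 4 goats were measured by single-nucleus RNA sequencing, 1 library per goat. The authors deposited a matrix of raw UMI counts per gene and nucleus for each library, made with Cell Ranger and not normalized. The submitters' notes name version 5.0.0 of Cell Ranger and the headers of the matrices version 3.1.0, and the genome build is given in the study's methods by an assembly number only, so positions in the genome are not given. Of 28944 genes in the files 10744 carry a locus number, and 2 enzymes were looked up in a RefSeq table of assembly ARS1.2. The authors also deposited 2 tables of their own comparisons of granulosa nuclei (fold changes, p-values and shares), which were not used here.

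All 48332 nuclei had at least 500 UMIs, and the study's filters (UMIs and genes within the mean plus or minus 2 SD, at most 20% mitochondrial UMIs) would keep 44872 of them. No doublet caller was run, so members can include doublets, and the study's own doublet calls were not used. The members, gene lists, named-gene rule and tests were chosen with earlier results of these data known. UMIs were summed per library and gate, and sums of at least 10 nuclei were tested with edgeR 4.0.16 (R 4.3.3, TMM, filterByExpr, quasi-likelihood test, adjusted p under 0.05). The gate was compared with all other nuclei, with the goat as a block, and with stromal and smooth muscle gates in 1 fit of 12 sums. Genes used by the gates were left out of those tests, and ABCA8, 1 of 8 stromal genes listed, was not analysed here. Breeds were compared 2 against 2 without a block. The replicate numbers do not pair goats of the 2 breeds.

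Named genes were up to 10 higher and 5 lower per comparison by log2 fold change, at an adjusted p under 0.05, with the same direction in every goat, a mean of at least 50 CPM in the higher group and a symbol other than a locus number. Named too were up to 6 members per list by mean CPM, the most abundant marker of each other cell type, and up to 8 genes per library of at least 100 CPM and 4 times the next library. The genes called by DESeq2 between breeds, the further fibroblast, marker and collagen genes with values, and RGS5, STAR and CYP17A1 were chosen after their values were seen. Some genes that met these rules are not reported here. Levels are CPM of summed counts and were not scaled for gene length. They set which list members were named and which was called most abundant, and no other comparison between genes was made.

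Each fit was tested on simulated data, with 200 genes changed by known folds in counts drawn from the real means. Within a fit all genes were given the same dispersion (spread between sums). Single nuclei that hold most UMIs of a gene were not simulated, so recovery in the real sums may differ. Genes changed 4-fold were recovered in 83% of cases against all other nuclei, 99% against the stromal gate, 100% against the smooth muscle gate and 65% between breeds, and genes changed 2-fold in 15.2%, 33%, 33% and 2.04%, in steps of 14888, 6579, 6579 and 5723 genes. Alternatives were other gate limits, UMI limits, the study's filters, thinning to 1000 UMIs, RLE size factors, DESeq2 1.42.0, no low-count filter, the block, leaving out each library, and 3 chosen after the data were seen: members without CYP19A1, INHA or PTPRC UMIs, shares among all nuclei without these UMIs, and nuclei of at most 20000 UMIs. Shares were computed with scipy 1.17.1.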

Additional observations from a re-analysis of the deposited data

Results flagged for a closer look

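For 7 genes of the lists the difference between members and other nuclei was itself different in the 2 breeds, by the interaction term of edgeR's quasi-likelihood test over 15248 genes, where 38 genes (0.249%) had an adjusted p under 0.05. With nuclei over 20000 UMIs left out 47 genes were called, 12 of them the same. For 32 of the 38 genes a single nucleus held most of the members' UMIs in Du'an 2.

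Higher in Nubian members relative to their other nuclei were RUNX1 (2.44 ± 0.51 on the log2 scale, adjusted p = 0.00393), FN1 (2.11 ± 0.44, adjusted p = 0.00354) and ERG (1.86 ± 0.47, adjusted p = 0.0484), and these 3 were also called without nuclei over 20000 UMIs. RUNX1, a transcription factor of blood and mesenchyme, was at 98.3, 241, 1330 and 314 CPM in members of Du'an 1, Du'an 2, Nubian 1 and Nubian 2 and at 393, 276, 220 and 298 CPM in other nuclei. Members thus stood well above other nuclei for RUNX1 in Nubian 1 only, and close to them in Nubian 2. FN1 was at 174, 184, 751 and 397 CPM and ERG at 85.6, 102, 327 and 196 CPM in members. For all 3 genes both Nubian values lay above both Du'an values, and Nubian 1 was the highest.

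Lower in Nubian members relative to their other nuclei were the dividing-cell genes TOP2A (-4.27 ± 0.71, adjusted p = 4.22e-05), CENPF (-2.64 ± 0.54, adjusted p = 0.00275) and TPX2 (-3.11 ± 0.68, adjusted p = 0.00786), and ATF3, a stress-response factor (-2.59 ± 0.61, adjusted p = 0.0212). TOP2A was at 38.0, 70.6, 3.96 and 5.76 CPM in members and 51.0, 51.5, 100.2 and 53.8 CPM in other nuclei. The Nubian levels in members rest on few UMIs, since a count of 0 allows up to 2.38 CPM in Nubian 1 and 8.64 CPM in Nubian 2. CENPF was at 34.9, 137, 29.3 and 14.4 CPM in members, with Du'an 1 close to Nubian 1, and at 93.8, 119, 258 and 128 CPM in other nuclei, both Nubian values being the higher, so the difference lay in other nuclei as well as in members. The nucleus of 86959 UMIs held 23 UMIs of TOP2A and 33 of CENPF, and without it Du'an 2 members were at 22.7 and 76.6 CPM. ATF3 was at 63.4, 139, 18.2 and 14.4 CPM in members and 20.8, 42.8, 14.2 and 106 CPM in other nuclei. Its difference thus lay partly in the other nuclei of Nubian 2. Of 18 immediate early and stress genes tested between breeds in members, 0 had a log2 difference (Nubian over Du'an) above 0. Their median was -0.95, beside 0.0021 over all genes, and none was called. Without nuclei over 20000 UMIs TOP2A and CENPF were called, and ATF3 and TPX2 were not (adjusted p = 0.150 and 0.122), although their differences kept their direction at -1.85 and -2.35.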

How the results depend on the processing

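Against all other nuclei, higher genes numbered 774 to 914 and lower genes 612 to 1085 when each library was left out in turn, the fewest lower without Du'an replicate 1, and 409 lower without the goat as a block. The comparison with the stromal gate depended on most settings. Its 17 higher and 7 lower genes became 0 and 0 with 3 of 9 gate genes, 39 and 22 with 5 of 9, 36 and 14 under the study's filters, 4 and 0 without CYP19A1, INHA or PTPRC UMIs, 42 and 26 without nuclei over 20000 UMIs, 68 and 48 by DESeq2, 176 and 211 with no filter on low counts, 0 and 0 without the goat block, and 0 to 4 and 0 to 7 without 1 library, with no call at all without Du'an replicate 2. Against the smooth muscle gate, 126 higher and 460 lower became 55 and 111 under the study's filters, 389 and 779 with no filter on low counts, 4 and 9 without the goat block, and 45 to 141 and 134 to 608 without 1 library (fewest without Nubian replicate 2), and lower genes were 297 with 5 of 9 gate genes and 236 without nuclei over 20000 UMIs. Between breeds, the 0 calls became 2 higher and 3 lower by DESeq2, 119 and 103 with no filter on low counts, and 0 to 30 and 0 to 6 without 1 library, the most higher without Nubian replicate 2 and the most lower without Du'an replicate 1, where the lone goat was assumed to vary like the other breed's. The cause was not tested.

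The share difference ranged from -0.201 to 1.23 points without 1 library and was 0.888 points among nuclei without CYP19A1, INHA or PTPRC UMIs. With that condition set on members only it was -0.0603 points, which follows from the construction, since such nuclei stayed in the denominator and 64.1% of the other nuclei of Nubian 1 had CYP19A1 UMIs. Of 82 named genes against all other nuclei, the direction turned for 4 genes near 0 that were not called. BMPR1B went to -0.032 with 5 of 9 gate genes, -0.086 under the study's filters and -0.092 without nuclei over 20000 UMIs, and ESR1 to -0.14, -0.057 and -0.13 in the same settings. ITGAV went to 0.038 with 3 of 9 gate genes and 0.016 without CYP19A1, INHA or PTPRC UMIs, and ranged from -0.21 to 0.22 without 1 library, as LTBP1 did from -0.054 to 0.34. STAR, called lower, went to 0.29 without nuclei over 20000 UMIs. Between breeds DCN, at 0.14 and not called, went to -0.37 with 5 of 9 gate genes, -0.21 under the study's filters, -0.051 without CYP19A1, INHA or PTPRC UMIs and -0.035 without nuclei over 20000 UMIs, and ranged from -0.080 to 0.33 without 1 library. No other gene named in these comparisons turned in the alternatives run.

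Same-numbered goats of the 2 breeds deviated together with a correlation of only 0.078 across 6113 genes, so the numbers were not read as pairs, and with the replicate number as a block 0 genes were called between breeds. Sums of 44 to 398 nuclei limit what low genes can show, and 1 library per goat leaves the animal and the library inseparable.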

Other observations

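Among mitochondrially encoded genes, ATP6, COX2 and ATP8 were nearly absent from 1 library. ATP6 was at 3325, 4.55, 4097 and 4139 CPM in members of Du'an 1, Du'an 2, Nubian 1 and Nubian 2 and at 1522, 1.95, 2561 and 3741 CPM in other nuclei. COX2 was at 1617, 2.28, 2162 and 1681 CPM in members and 814, 2.10, 1363 and 1965 CPM in other nuclei. Of ATP8, Du'an 2 had 0 UMIs in members and 0 in other nuclei. COX3, which lies on the same mitochondrial genome, was at 7797, 11235, 9037 and 8537 CPM in members, with Du'an 2 the highest. A comparison of breeds for ATP6, COX2 or ATP8 rests on this library, in members and other nuclei alike.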
